A study of Mus musculus with 31 samples.

Results

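The genes described here are 38 members of the machinery that copies DNA and divides the cell, 11 of them expressed for S phase and 27 for mitosis, among 25075 genes or unnamed transcripts measured in whole mouse lung. They were found by gene symbol and not by any measured value. Where a gene had several probes, the brightest that passed the filter on dim probes stood for it. A probe was kept where all arrays of some group gave it a signal well above background, and 36 members had such a probe.

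The lungs came from female C57BL/6 mice of 6 weeks, 1 mouse per array, all under xylazine and ketamine anaesthesia. Into the tail vein went either 200 µl of saline (physiological serum) or oleic acid, a fatty acid that injures the lung endothelium when given into a vein. Oleic acid was dosed by weight, 1.2 µl per g, with an injected volume of 200 µl. Lungs were taken at 1, 1.5, 3, 4, 18 or 24 h. No uninjected mice are among the samples. After 2 oleic acid arrays with a poor spike-in slope (1.5 h replicate 3 and 3 h replicate 2) were left out, 29 arrays remained, 13 saline and 16 oleic acid. There were 3 saline mice at 1 h and 2 at each other time. Oleic acid mice numbered 2 at 1.5 h and at 3 h and 3 at each other time.

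A dividing cell first loads the MCM2-7 helicase on its DNA in G1, with the help of Cdc6, and then unwinds and copies the DNA in S phase, when ribonucleotide reductase, thymidylate synthase and thymidine kinase supply nucleotides. In mitosis the kinase Cdk1 with cyclin B starts chromosome condensation, kinesins and centromere proteins attach and move the chromosomes, and the anaphase-promoting complex ends the phase by destroying the cyclins. In a healthy adult lung few cells divide, and these genes are used as a sign of proliferation in epithelial, endothelial and immune cells after injury. S phase genes are known as targets of E2F factors, and mitotic genes as targets of the DREAM and B-Myb-FoxM1 complexes through CHR and CCAAT elements.

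The promoters of 5 members whose brightest kept probe fell over time are shown first, because the S phase and mitotic members differ in the elements they carry. Each stretch runs from 150 bases before to 30 bases after the start of the RefSeq gene (build GRCm38.p6), 5′ to 3′ on the gene's strand, and capitals mark a match on either strand to 1 of the motifs searched. These are CHR, read as TTTGAA, the CCAAT box, and a pair of E2F motifs. The first E2F motif is TTTGGCGC or else TTTCGCGC, the second is GGCGGGAA or else GGCGCGAA, and they can overlap each other. Mcm6 lies at chr1:128359676-128359855, reverse strand. Rrm2 lies at chr12:24708104-24708283, forward strand. Ccnb2 lies at chr9:70421525-70421704, reverse strand. Birc5 lies at chr11:117849087-117849266, forward strand. Ccnb1 lies at chr13:100786457-100786636, reverse strand.
Mcm6: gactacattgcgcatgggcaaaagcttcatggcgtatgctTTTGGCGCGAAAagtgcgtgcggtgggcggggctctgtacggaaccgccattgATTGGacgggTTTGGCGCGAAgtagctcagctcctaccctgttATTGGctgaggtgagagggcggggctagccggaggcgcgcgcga
Rrm2: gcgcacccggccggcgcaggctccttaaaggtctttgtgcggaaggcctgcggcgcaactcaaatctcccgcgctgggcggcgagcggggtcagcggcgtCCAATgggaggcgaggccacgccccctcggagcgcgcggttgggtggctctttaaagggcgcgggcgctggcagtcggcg
Ccnb2: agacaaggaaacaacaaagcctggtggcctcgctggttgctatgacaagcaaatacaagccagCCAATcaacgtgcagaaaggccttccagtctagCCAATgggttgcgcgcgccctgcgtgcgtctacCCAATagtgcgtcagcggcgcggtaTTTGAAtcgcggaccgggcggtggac
Birc5: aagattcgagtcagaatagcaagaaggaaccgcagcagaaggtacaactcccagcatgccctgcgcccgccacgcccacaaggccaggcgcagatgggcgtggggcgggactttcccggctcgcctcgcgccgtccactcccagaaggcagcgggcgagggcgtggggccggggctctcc
Ccnb1: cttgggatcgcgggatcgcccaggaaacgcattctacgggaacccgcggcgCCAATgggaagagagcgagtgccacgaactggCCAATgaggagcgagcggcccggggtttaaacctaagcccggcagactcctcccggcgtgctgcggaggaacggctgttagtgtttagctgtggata
The Mcm6 stretch holds E2F matches at 2 places and CCAAT boxes in reverse orientation. Rrm2 has a CCAAT box and no E2F match in these letters. Ccnb2 carries CCAAT boxes upstream and a CHR just after the start. Ccnb1 carries CCAAT boxes without a match to TTTGAA, the only form of CHR searched. Birc5 has none of the motifs in this window. The window of Cdc6 also holds none of the motifs and is not printed.

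A promoter window of 300 bases was at hand for 32 of 38 members, in 11 S phase and 23 mitotic windows, and none was used for Mcm4, Ccna2, Aurkb, Kif20a, Tpx2 and Foxm1. CHR was present in 17 of 23 mitotic windows (73.9%) and in 1 of 11 S phase windows (9.09%), against 17.9% of 32851 windows of all genes. CHR together with CCAAT was found in 16 of 23 mitotic windows (69.6%), against 6.95% of all windows. CCAAT alone was common in both groups, in 19 of 23 mitotic windows (82.6%) and 8 of 11 S phase windows (72.7%), against 37.4% of all. The first E2F motif was found in 4 of 11 S phase windows (36.4%) and 1 of 23 mitotic windows (4.35%), against 0.813% of all, and the second in 4 of 11 and 0 of 23, against 2.7%. The 21 CHR matches of the mitotic members had a median position of -18 relative to the start, and 15 lay within 60 bases of it. A match is a run of letters and was not tested as a binding site here.

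All values below are the log2 processed signal after the array's own 75th percentile was subtracted, so a difference of 1 is a 2-fold difference, and no probe's level is set against another's. A gene passed where its limma p-value, adjusted by the Benjamini-Hochberg method over all 25075 features, was under 0.05. Ranges in parentheses are 95% intervals. In whole lung, fewer dividing cells and less RNA per cell cannot be told apart.

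Of the 36 measured members, 28 lay above background on all 29 arrays, 9 S phase and 19 mitotic. The S phase exceptions were Tyms (thymidylate synthase), above background on 25 arrays, and Cdc6, the helicase loader, on 11. Among the mitotic genes, Melk, a kinase, was above it on 26 arrays, the checkpoint kinase Bub1 on 23, and the spindle kinesin Kif11 on 22. The kinesin Kif2c was above background on 10 arrays, Cdk1 on 7 and the checkpoint kinase Ttk on 4, so their values over most arrays are near background and imprecise. Aurkb, the kinase of the chromosomal passenger complex, was above background on 0 of 29 arrays and the kinetochore protein Cenpf on 3. Neither passed the filter.

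Array quality bears on several results. The slope against spike-in amount was 0.937 to 1.06 on the 29 arrays. Between 51.18% and 82.39% of spots lay above background, and 5 arrays exceeded 70%. Among oleic acid mice these were replicate 2 of 1 h and of 18 h, and among saline mice replicate 1 of 1 h and replicate 2 of 1.5 h and of 18 h. The arrays came on 4 slides. For 18 h, slide 3 held the saline mice and slide 4 the oleic acid mice, so treatment and slide cannot be told apart there. Saline 4 h and 18 h shared slide 3, and oleic acid 18 h and 24 h shared slide 4. All oleic acid arrays of 1 to 4 h were on slides 1 to 3, so late against early and slide cannot be told apart in those mice. Markers of alveolar, club, ciliated, endothelial and fibroblast cells were above background on all 29 arrays, as the lung label calls for, and so were those of heart muscle.

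In none of the 36 measured members did the difference between oleic acid and saline mice pass, at any of the 6 times. The question asked by the design is how expression in injured lung departs from that in saline lung over time. At 1, 1.5 and 3 h 0 of 36 members passed, and 0% of all features did. At 4 h the members that passed were again 0, against 0.0199% of features. At 18 h it was 0 against 0.0199%, and at 24 h 0 against 0.016%. The share of features that passed was itself near 0, so the members' counts say little beyond that. At an unadjusted p under 0.05 the counts over the 6 times in order were 1, 0, 2, 5, 1 and 0 of 36 members, against 4.31%, 1.42%, 6.31%, 7.66%, 2.31% and 4.75% of features. A limma F test, chosen after the data were seen, asked whether the oleic acid effect differed between the 6 times. An effect of equal size at all times would not show in it. It gave 0 members, with 0.00798% of features and 2 members at an unadjusted p under 0.05.

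Averaged over 1 to 4 h, the median oleic acid minus saline difference was 0.05 for the 11 S phase members and 0.04 for the 25 mitotic members, against -0.02 for all features. Differences lay above 0 for 7 of 11 and 13 of 25 members, none passed, and 0% of features passed. Among those above 0 were Cdk1 (0.26) and Kif2c (0.04). Kif2c passed the background filter only through oleic acid arrays of 1.5 h, and Cdk1 only through those of 1.5 and 3 h. Their signs here support nothing. The intervals of 10 S phase and 24 mitotic members lay within a 2-fold difference either way. Over 18 and 24 h the medians were 0.02 and -0.10, against -0.07 for all features, with 9 of 11 and 8 of 25 above 0. There 0 members passed, against 0.00798% of features, and 10 and 22 intervals lay within 2-fold. Cdc6 and Ttk, which enter these late counts, passed the filter only through the saline arrays of 18 h. The medians of both groups changed sign under other scalings or array sets, so no direction is given. The difference between the late and early effects had medians of 0.05 and -0.08 against -0.04, and again 0 members and 0% of features passed.

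**Figure D1:**
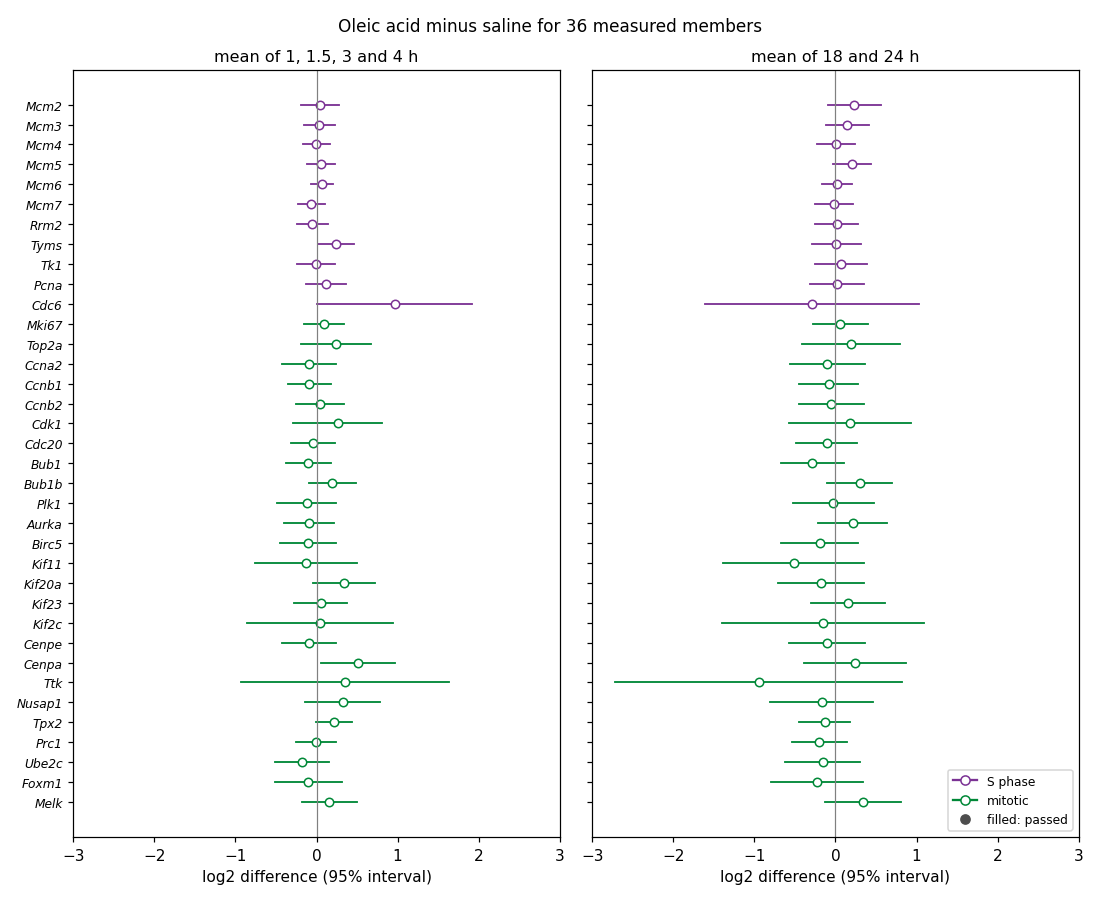
Oleic acid minus saline difference (log2, with 95% interval) of each of the 36 measured members, averaged over 1 to 4 h on the left and over 18 and 24 h on the right. Most points lie within 0.5 of the zero line, open symbols mark members that did not pass, which is all of them, and the widest intervals belong to Cdc6, Kif2c and Ttk, which are near background on most arrays.

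The S phase members with the smallest p early were Tyms and Cdc6. Tyms had a lowest, median and highest value of -3.99, -3.64 and -3.35 in 9 saline mice of 1 to 4 h and -3.74, -3.42 and -2.87 in 10 oleic acid mice. These overlap widely, and the fitted difference was 0.25 (0.02 to 0.47, adjusted p = 0.657). Cdc6 differed by 0.96 (0.0056 to 1.92, adjusted p = 0.657) on arrays where most of its values were not above background. Next came Mcm6, a helicase subunit, at 0.07 (-0.06 to 0.20) and Pcna, the sliding clamp of the polymerases, at 0.12 (-0.12 to 0.36).

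Among the mitotic members the centromeric histone Cenpa had the smallest early p. It ranged from -2.26 to -0.48 around a median of -1.37 in saline and from -2.22 to -0.12 around -0.76 in oleic acid mice. The groups shared nearly their whole range, and the difference of 0.51 (0.05 to 0.97) had an adjusted p of 0.657. The spindle assembly factor Tpx2 differed by 0.22 (-0.01 to 0.44), the cytokinesis kinesin Kif20a by 0.34 (-0.04 to 0.72) and the spindle protein Nusap1 by 0.32 (-0.14 to 0.79). None of these passed.

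Late after the injection the smallest S phase p belonged to helicase subunits. Mcm5 ran from -0.26 to 0.57 in 4 saline mice and from 0.15 to 0.69 in 6 oleic acid mice, with a difference of 0.20 (-0.03 to 0.44, adjusted p = 0.943). Mcm2 differed by 0.23 (-0.09 to 0.56), Mcm3 by 0.14 (-0.12 to 0.41) and Cdc6 by -0.29 (-1.61 to 1.03). Cdc6 was in the measured set only through its saline arrays of 18 h. Of the mitotic members, the checkpoint kinase Bub1b differed by 0.30 (-0.10 to 0.70), its relative Bub1 by -0.29 (-0.67 to 0.10), Melk by 0.34 (-0.13 to 0.80) and Kif11 by -0.52 (-1.39 to 0.35). All 4 had an adjusted p of 0.943. Their signs are mixed within each group.

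The change of the oleic acid effect from early to late was measured no more precisely. For Cdc6 it was -1.25 (-2.89 to 0.38), for Tyms -0.23 (-0.61 to 0.15), for Mcm5 0.15 (-0.14 to 0.45) and for Mcm2 0.19 (-0.22 to 0.59). For the mitotic Tpx2 it was -0.35 (-0.74 to 0.04), for Kif20a -0.52 (-1.17 to 0.13), for Nusap1 -0.49 (-1.28 to 0.29) and for Ttk -1.30 (-3.49 to 0.88). Each of these 8 intervals includes 0. Cdc6 and Ttk passed the background filter only through the saline arrays of 18 h, which enter these differences, so their values here support nothing.

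Time after the injection, in contrast, gave members that passed in both treatments. In saline mice 5 of 36 members passed between 4 and 18 h, against 6.37% of all features, 4.63% lower and 1.75% higher. Mcm6, Rrm2, Birc5 and Ccnb1 fell, though for Ccnb1 the direction depends on the probe, as given below. The remaining member, Cdc6, was higher at 18 h, but it entered the measured set only because the saline arrays of 18 h lay above background, so it had to differ and its call supports nothing. The median change was -0.42 for the S phase members and -0.67 for the mitotic members, against -0.06 for all features, and 2 of 11 and 7 of 25 members lay above 0. Those above 0 include Cdc6 and also Ttk, which like it entered only through the saline arrays of 18 h. Over the other settings these medians ran from -0.89 to -0.28 and from -1.13 to -0.33, so their size, not their sign, depends on the scaling. In oleic acid mice 3 of 36 members fell from 1 to 4 h to 18 and 24 h (Birc5, Mcm6 and Ccnb2), against 5.34% of features, 3.24% lower and 2.1% higher. The median changes there were -0.06 and -0.24 against -0.03, with 3 of 11 and 4 of 25 members above 0. The 25 include Cdk1 and Kif2c, which entered only through oleic acid arrays of 1 to 4 h. Whether 4 of 36 lower in saline or 3 of 36 lower in oleic acid mice exceeds these shares was not tested.

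Saline 4 h replicate 2 and saline 18 h replicate 2 decide the saline count. Without either of them 0 members passed, and without saline 18 h replicate 1 there were 10. Saline 4 h replicate 2 had the highest mean of both gene groups among the 29 arrays, and saline 18 h replicate 2 was 1 of the 5 arrays that exceeded 70%. When all 5 of those were left out, none of the 4 that fell passed, with saline 18 h then a lone array assumed to vary like the other groups. The oleic acid count of 3 became 0 without oleic acid 1.5 h replicate 2, 18 h replicate 3, 24 h replicate 1 or 24 h replicate 3, and 1 without 1 h replicate 1, 3 h replicate 1, 4 h replicate 1 or 18 h replicate 1. Without the 5 arrays over 70%, Foxm1 and Nusap1 passed there in place of the 3. With each array centred on its median in place of its 75th percentile, the median of all features moved by -0.47 in the saline comparison, and 0 members passed in either.

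Mcm6, a subunit of the replicative helicase, was the S phase member that passed most widely. Its values were 2.94 and 3.01 in the saline mice of 4 h, 2.52 and 2.27 at 18 h and 2.67 and 2.80 at 24 h. The oleic acid mice read 2.92, 2.74 and 2.80 at 4 h, 2.43, 2.38 and 2.40 at 18 h and 2.73, 2.78 and 2.81 at 24 h. All 5 arrays of 18 h lay below all 5 of 4 h and all 5 of 24 h.

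At 1 to 3 h Mcm6 was between 2.47 and 2.99 in both treatments, and the only array of those times below the highest 18 h array was saline 1.5 h replicate 2, at 2.47. The saline change from 4 to 18 h was -0.58 (-0.87 to -0.30, adjusted p = 0.018). The late minus early change in oleic acid mice was -0.26 (-0.41 to -0.12, adjusted p = 0.0349). In saline mice the late minus early change was -0.22 (-0.39 to -0.05, adjusted p = 0.186).

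Rrm2 is the small subunit of ribonucleotide reductase and limits the supply of deoxynucleotides. It stood at 0.07 and 0.46 in saline mice of 4 h and at -0.29 and -0.69 at 18 h, without overlap. The change was -0.75 (-1.17 to -0.34, adjusted p = 0.0292). With oleic acid it was -0.12, -0.04 and -0.28 at 4 h, -0.71, -0.30 and -0.57 at 18 h and -0.09, 0.14 and -0.24 at 24 h. There too the 18 h arrays were the lowest of these times, by a narrow margin, and the late minus early change of -0.24 did not pass (adjusted p = 0.192).

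The values of Cdc6, which loads the helicase, are a description, since only the saline group of 18 h brought it through the background filter. It was above background on both saline arrays of 18 h, at -1.46 and -3.93, and on neither of 4 h, measured at -6.32 and -5.85. Against the lowest signal well above background on those arrays it was at least 2.86-fold higher at 18 h, and the arrays of 18 h differ from each other by more than that. Oleic acid mice of 18 h had -4.49, -3.95 and -5.46, above background on 2 of 3 arrays.

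Birc5, or survivin, a subunit of the chromosomal passenger complex and an inhibitor of apoptosis, was the mitotic member with the largest fall that passed. In saline mice it was 0.99 and 1.99 at 4 h, 0.55 and -0.42 at 18 h and 0.80 and 0.29 at 24 h. With oleic acid the values were 1.04, 1.56 and 0.56 at 4 h, -9e-04, 0.01 and -0.19 at 18 h and 0.03, 0.64 and 0.17 at 24 h. The 18 h arrays lay below the 4 h arrays in each treatment.

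From 1 to 3 h Birc5 ran from 0.23 to 1.19 over both treatments. The saline change from 4 to 18 h was -1.43 (-2.16 to -0.69, adjusted p = 0.0219), a 2.69-fold fall. The late minus early change was -0.74 (-1.12 to -0.36, adjusted p = 0.0217) in oleic acid mice and -0.65 (-1.09 to -0.20, adjusted p = 0.118) in saline mice. The 2 other kept Birc5 probes moved less: they changed by -0.51 and 0.14 in saline mice from 4 to 18 h and by -0.11 and 0.33 in oleic acid mice from early to late. Their correlation with the brightest probe over 29 arrays was 0.50 and 0.15, so the fall that passed is that of the brightest of 3 probes.

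Ccnb2 is a B-type cyclin that partners Cdk1. In oleic acid mice it was -0.25, 0.20 and -0.43 at 1 h, 0.52 and 0.24 at 1.5 h, 0.08 and -0.08 at 3 h and 0.20, 0.41 and -0.47 at 4 h. It was -0.71, -0.58 and -0.67 at 18 h and -0.68, -0.0046 and -0.32 at 24 h. The 3 arrays of 18 h lay below every earlier oleic acid array, whereas those of 24 h overlapped them.

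The late minus early change of Ccnb2 was -0.56 (-0.89 to -0.23, adjusted p = 0.0432) in oleic acid mice. In saline mice it was -0.46 (-0.84 to -0.08, adjusted p = 0.208), from 0.12 and 0.70 at 4 h to -0.01 and -0.81 at 18 h and -0.46 and -0.49 at 24 h. The difference between the treatments in this change did not pass for any member.

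Ccnb1, the main mitotic cyclin, stood at -1.68 and -1.31 in saline mice of 4 h, -2.18 and -2.69 at 18 h and -1.82 and -2.23 at 24 h. The change from 4 to 18 h was -0.94 (-1.51 to -0.38, adjusted p = 0.044). Saline mice of 1 h, at -1.58, -2.24 and -2.54, spanned most of that range. Its 2 other kept probes, above background on 14 and 8 arrays, changed by 0.36 and 1.27 instead, and the mean of the 3 probes turned the change to 0.23, so its direction depends on the probe.

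**Figure D2:**
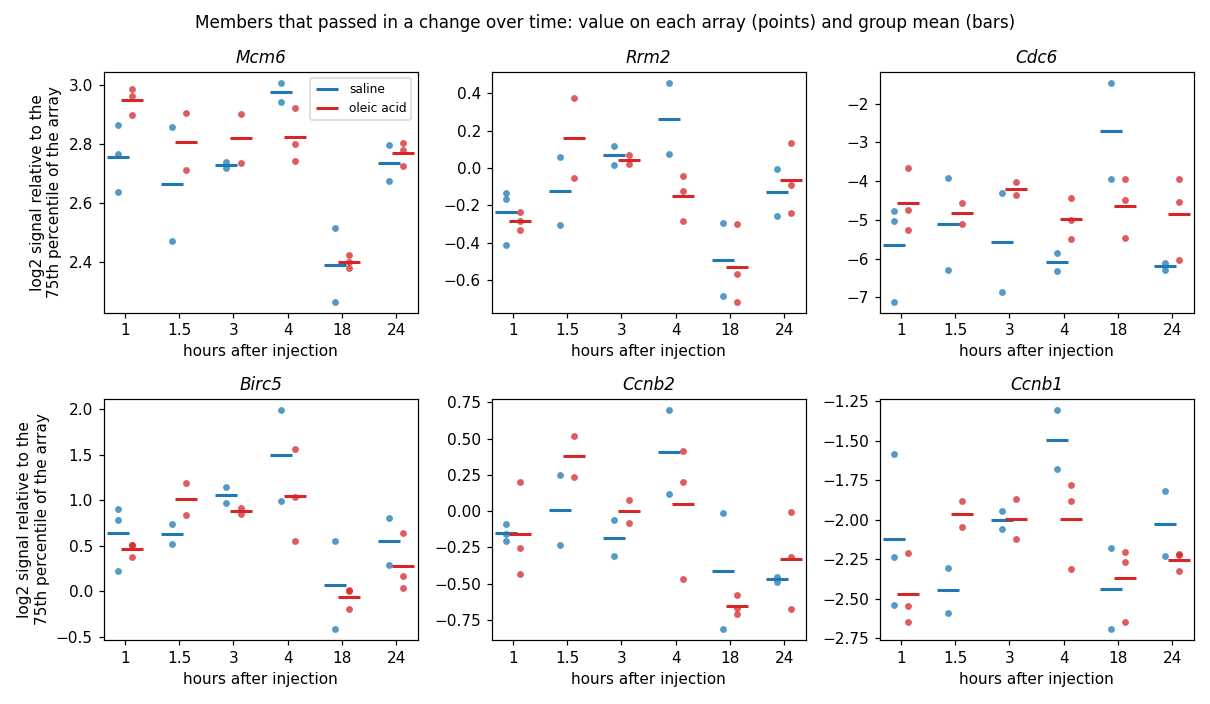
Value on each array (points, log2 signal minus the array's 75th percentile) and group mean (bars) of the 6 members that passed in a change over time, against hours after injection, saline in blue and oleic acid in red. The 18 h points of Mcm6 lie at 2.27 to 2.52, below all points of 4 and 24 h, while the scale of Cdc6 covers over 5 log2 units.

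Members near the threshold in saline from 4 to 18 h were 2 further helicase subunits. Mcm5 went from 0.31 and 0.59 to -0.0037 and -0.26, a change of -0.58 (-0.95 to -0.21, adjusted p = 0.0539). Mcm7 went from 2.88 and 2.77 to 2.44 and 2.09, a change of -0.56 (-0.92 to -0.20, adjusted p = 0.0577). Neither set of arrays overlapped. The kinetochore kinesin Cenpe differed by -0.99 (-1.71 to -0.27, adjusted p = 0.0898), from -0.53 and -0.41 to -1.02 and -1.92. Bub1 differed the other way, by 0.79 (0.19 to 1.39, adjusted p = 0.107), from -3.99 and -3.35 to -2.96 and -2.81.

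The same interval in oleic acid mice was compared after the data were seen. Birc5 changed by -1.11 (-1.71 to -0.51, adjusted p = 0.0318) and Mcm6 by -0.42 (-0.65 to -0.19, adjusted p = 0.0357), 2 of 36 members against 4.73% of features, 2.83% lower and 1.89% higher. The medians were -0.08 for the S phase and -0.40 for the mitotic members, against -0.04 for all features. These arrays of 4 and 18 h were on different slides, which cannot be told apart from time. Leaving out 4 h replicate 1 or 2, or 18 h replicate 1, 2 or 3, left 0. The difference in change between oleic acid and saline mice passed for 0 members, against 0.012% of features, and 4 had an unadjusted p under 0.05.

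**Figure D3:**
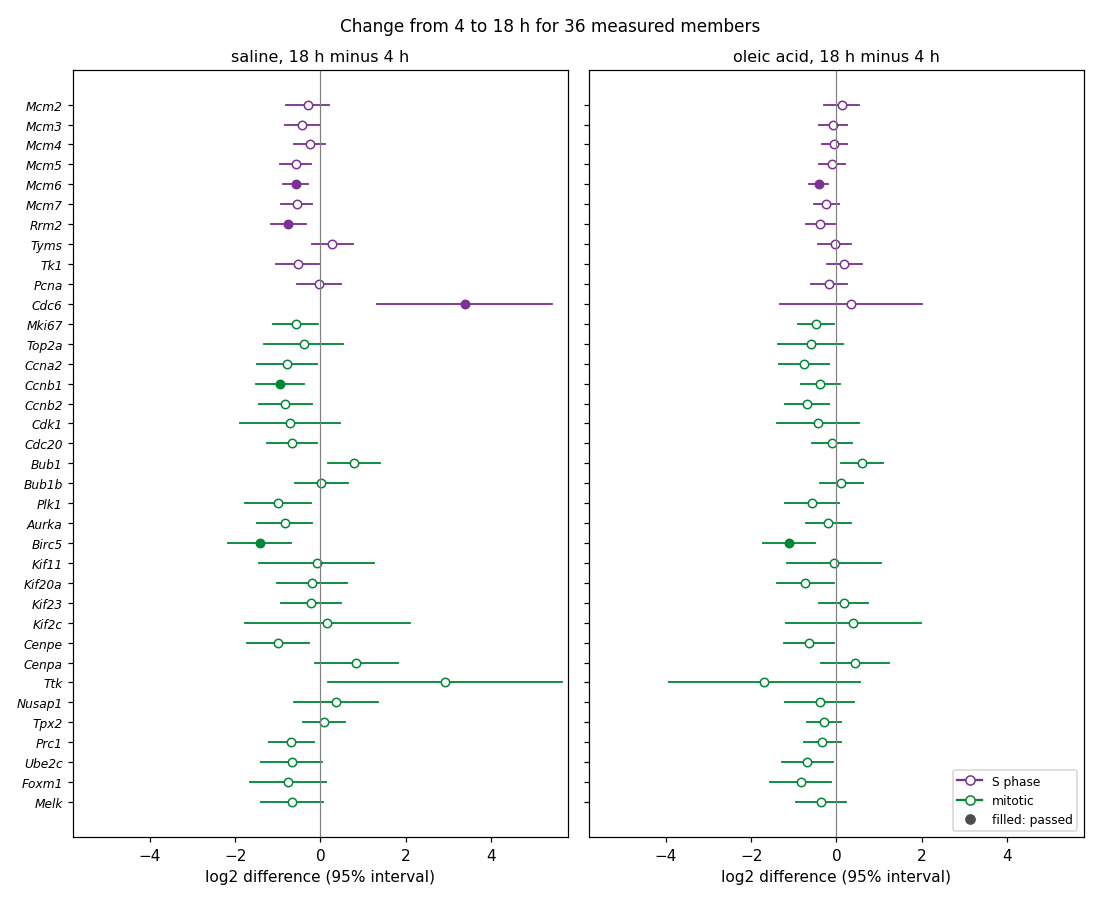
Change from 4 to 18 h (log2, with 95% interval) of the 36 measured members in saline mice on the left and oleic acid mice on the right, with filled symbols for members that passed. In saline mice 5 symbols are filled, 4 of them below 0 and the other that of Cdc6, which was kept only through its high group, and in oleic acid mice those of Mcm6 and Birc5.

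Late against early in saline mice gave 0 of 36 members, against 2.69% of features, 1.37% lower and 1.32% higher, and 7 at an unadjusted p under 0.05. The medians were -0.07 and -0.22 against 0.02 for all features. Beside Mcm6, Birc5 and Ccnb2, given above, the smallest p belonged to Rrm2, at -0.30 (-0.55 to -0.05), Bub1, at 0.43 (0.06 to 0.79), and Melk, at -0.48 (-0.91 to -0.04). The next members in oleic acid mice were Mki67, the proliferation marker Ki-67, at -0.36 (adjusted p = 0.123), and cyclin A2 (Ccna2), at -0.43 (adjusted p = 0.174). Limma F tests over the 6 times gave 0 members in saline mice (4.65% of features) and 0 in oleic acid mice (4.67%), where Mcm6 came nearest at an adjusted p of 0.0527.

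The average of the S phase genes was lower in every mouse at 18 h than in any mouse at 24 h. Single genes, such as Pcna in the saline mice of 18 h (2.72 and 2.66, against a median of 2.60 over all arrays), did not follow it. The mean of the 9 S phase members above background on all arrays, each centred on its own mean, was -0.13 and -0.38 in the saline arrays of 18 h and -0.03, -0.14 and -0.19 in the oleic acid arrays. At 24 h it was 0.09 and 0.05 in saline and 0.16, 0.11 and 0.0091 in oleic acid arrays. All 5 arrays of 18 h were below 0 and all 5 of 24 h above it, against a pooled SD within groups of 0.118. The arrays nearest to 0, at -0.03 for 18 h and 0.0091 for 24 h, lay within 1 such SD of it. Means below 0 were not particular to 18 h. Saline arrays of 1 h had -0.09, -0.04 and -0.13, those of 1.5 h -0.06 and -0.11. Oleic acid 4 h replicate 3 had -0.16. All arrays of 3 h and the saline arrays of 4 h were above 0. The mean of the 19 mitotic members was 0.0049 and -0.38 in saline and -0.37, -0.15 and -0.37 in oleic acid arrays of 18 h. At 24 h it was -0.12 and -0.10 in saline and -0.11, 0.14 and -0.23 in oleic acid arrays, so the mitotic mean overlapped between these times. The groups with the highest mitotic mean were saline 4 h, at 0.12 and 0.53, and oleic acid 1.5 h, at 0.42 and 0.40, with a pooled SD of 0.167. The median S phase difference of 24 h against 18 h in oleic acid mice ran from 0.15 to 0.29 over the 13 settings, and from 0.06 to 0.23 when single arrays were left out. The lowest of these was without oleic acid 18 h replicate 3.

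**Figure D4:**
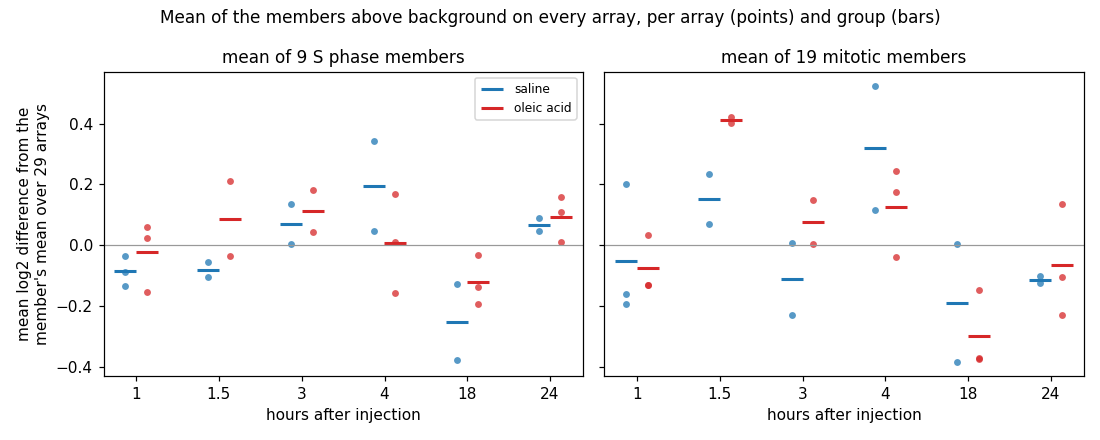
Mean of the 9 S phase members (left) and of the 19 mitotic members (right) above background on every array, each member centred on its mean over 29 arrays (log2), per array as points and per group as bars, against hours after injection. For the S phase members the 18 h points are all below 0 and the 24 h points all above it, and saline 4 h has the highest single point in both panels. Points of 1 to 4 h lie on both sides of 0 in both panels.

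Within slide 4, oleic acid mice of 24 h against 18 h gave 0 members and 0.012% of features that passed, with 6 of 36 members at an unadjusted p under 0.05 against 2.24% of features. Medians were 0.17 for both groups against 0.01. The smallest p were those of Mcm6 at 0.37 (0.14 to 0.60), Mcm5 at 0.43 (0.13 to 0.73) and Rrm2 at 0.46 (0.12 to 0.80), each with an adjusted p of 1. On Mcm5 the oleic acid arrays read 0.21, 0.15 and 0.18 at 18 h and 0.66, 0.69 and 0.49 at 24 h, without overlap. Mitotic members followed with Ube2c, the ubiquitin-conjugating enzyme of the anaphase-promoting complex, at 0.66 (0.07 to 1.25), the spindle midzone protein Prc1 at 0.48 (0.04 to 0.91), Cenpe at 0.63 (0.04 to 1.22) and Mki67 at 0.34 (-0.09 to 0.77).

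With both treatments averaged, a comparison made after the data were seen, 24 h against 18 h gave 0 members and 0.00399% of features that passed. Mcm5 had a difference of 0.54 (adjusted p = 0.332) and Rrm2 of 0.41 (adjusted p = 0.36), and 9 of 36 members had an unadjusted p under 0.05, against 11.6% of features.

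At single times no oleic acid minus saline difference passed. At 3 h the differences of 2 members above background on every array were 0.95 for Cenpa (adjusted p = 0.8) and 0.83 for Kif20a (adjusted p = 0.781). At 4 h Prc1 was -0.41 and 0.14 in saline mice of 4 h and -0.77, -0.67 and -1.02 in oleic acid mice, without overlap. The difference was -0.69 (adjusted p = 0.646), and the higher of the saline arrays is replicate 2, which is high for most members. These 3 members were chosen for these times after their values were seen.

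**Figure D5:**
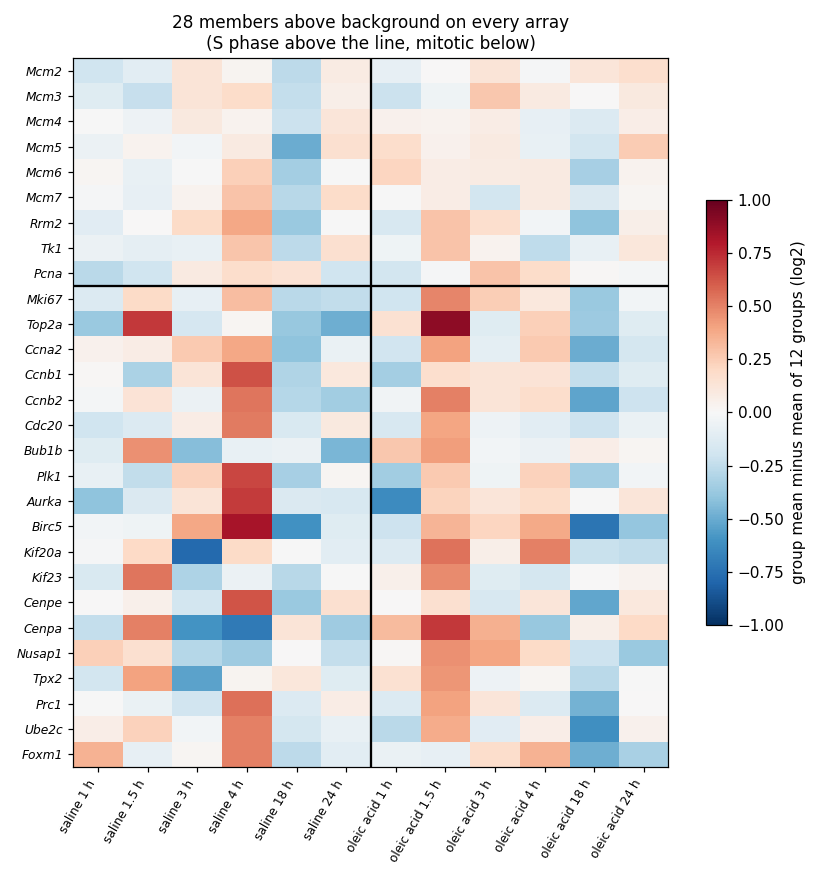
Group mean minus the mean of the 12 groups (log2, colour) for the 28 members above background on every array, with saline groups to the left and oleic acid groups to the right, in order of time. Red columns mark saline 4 h and, for mitotic members, oleic acid 1.5 h, and blue columns mark 18 h in both treatments, with Cenpa and Bub1b among the exceptions.

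Members correlated with each other from mouse to mouse within groups more than they did with other features. Correlations among other features were not computed. After the group means were removed, the median correlation over 29 arrays was 0.36 for 36 pairs of S phase members, 0.21 for 171 pairs of mitotic members and 0.20 for 171 mixed pairs, against 0.01 for members with all other features. Correlations over 0.5 made up 27.8%, 28.7% and 22.2% of these pairs, against 10.48%. Ccnb1 had a median of 0.51 with the other mitotic members, and Mcm4 and Mcm2 had 0.50 and 0.49 with the other S phase members. Pcna (-0.03), Top2a, the topoisomerase that untangles chromosomes (-0.01), Cenpa (-0.14) and Bub1b (-0.23) did not follow their groups. These pairs share arrays, scaling and signal range.

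Across arrays the S phase and mitotic means correlated with r = 0.51 and rho = 0.37, and r was 0.27 without the 2 arrays farthest from the median. Within the slides r was -0.28, 0.03, 0.93 and 0.67, so the relation lay on slides 3 and 4. The share of spots above background correlated with the S phase mean at -0.51 over 29 arrays and at -0.06 over the 24 arrays with at most 70%, and with the mitotic mean at -0.12. Its correlation with the S phase mean was -0.43, -0.62, -0.59 and -0.49 within the slides. With group means removed it was -0.29 over the 24 arrays. The part of this share in the S phase means was not tested. The 3 arrays of 18 h with at most 70% were also below 0 for the S phase mean.

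Other genes of the same pathways were counted from lists. Of 38 further replication genes 34 were measured, and 5 fell in saline mice from 4 to 18 h with a list median of -0.03, where 4.63% of all features fell. They include Chaf1b, a chromatin assembly factor, at -1.16 (adjusted p = 0.00569), Orc6 of the origin recognition complex at -0.71 (adjusted p = 0.0072), the initiation factor Mcm10 at -1.78 (adjusted p = 0.0204) and Rpa1, which binds single-stranded DNA, at -0.62 (adjusted p = 0.0239). From early to late in oleic acid mice Chaf1b fell by 0.55 (adjusted p = 0.00781) and Orc6 by 0.28 (adjusted p = 0.0256), 2 of 34, with a median of 0.02, where 3.24% of all features fell.

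Of 52 further mitotic genes 42 were measured, and 3 fell in saline mice from 4 to 18 h (4.63% of all features), with a median of -0.26. The condensin subunit Ncaph changed by -1.16 (adjusted p = 0.00196) and Cdca3, an adaptor for mitotic entry, by -1.35 (adjusted p = 0.0308). In oleic acid mice from early to late 4 fell (3.24% of all features) with a median of -0.16: Ncaph by 0.62 (adjusted p = 0.00112), the cohesin protector Sgo1 by 0.61 (adjusted p = 0.00564), Racgap1 of the centralspindlin complex by 0.52 (adjusted p = 0.00943) and Pimreg by 0.60 (adjusted p = 0.0111). Late against early in saline mice, Ncaph changed by -0.58 (adjusted p = 0.00843), Orc6 by -0.38 (adjusted p = 0.0208) and Chaf1b by -0.53 (adjusted p = 0.0358).

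Of 25 genes of the G1 to S transition 23 were measured. In saline mice from 4 to 18 h 1 fell (4.63% of all features), Mybl2 (B-Myb), by 0.87 (adjusted p = 0.0428). From early to late 2 rose in oleic acid mice (2.1% of all features), Mycn by 1.53 (adjusted p = 0.0155), above background on 24 arrays, and E2f4 by 1.52 (adjusted p = 0.0161), on 18.

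All 24 genes of cell cycle inhibitors and the p53 response were measured, and 7 fell in each of the changes described, the highest count among the 4 lists. In saline mice from 4 to 18 h 7 fell (4.63% of all features), with a median of -0.47. Cdkn1a, the inhibitor p21, changed by -2.02 (adjusted p = 0.0134), Gadd45b by -1.09 (adjusted p = 0.0122) and the sestrins Sesn2 and Sesn1 by -1.30 (adjusted p = 0.02) and -0.84 (adjusted p = 0.0284). From early to late 7 fell in oleic acid mice (3.24% of all features) with a median of -0.17, led by Trp53inp1 at -0.68 (adjusted p = 0.00712), Gadd45b at -0.60 (adjusted p = 0.00767), Sesn1 at -0.53 (adjusted p = 0.0101) and the Cdk1-inhibiting kinase Wee1 at -1.02 (adjusted p = 0.0165). Genes that hold the cycle back and genes that run it were both among those that fell. In none of these 4 lists did a gene pass between oleic acid and saline, early or late.

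Markers of blood and thymus cells, which can divide in or near the lung, were measured beside these changes. Of 12 thymocyte markers 7 passed the filter, Rag1 was above background on 0 of 29 arrays, Rag2 on 5 and Ptcra on 9, and their summed linear level was 8.65 to 9.61 in saline mice of 4 h and 8.10 to 9.72 at 18 h. Of 14 markers of red cell precursors 9 passed, and their sum was 1703 to 2328 and 855 to 1719 in the same groups, and 1571 to 2020 against 1003 to 1010 in oleic acid mice. Their sum was lower at 18 h on average in both treatments, and no single marker passed.

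Of 10 neutrophil markers 9 passed the filter, and their sum was 350 to 706 in saline mice of 4 h and 196 to 249 at 18 h, with 3 genes that fell and a median change of -1.46. Of 10 myeloid precursor markers 9 passed the filter, with sums of 89.4 to 99.6 and 86.2 to 96.9. Of 10 markers of B and plasma cells 9 did so, with sums of 19.5 to 35.7 and 30.02 to 37.5, and Ms4a1 (CD20) rose by 1.38 (adjusted p = 0.0173), so these went the other way. Markers of several kinds of resident lung cell also had lower sums at 18 h in saline mice. The 8 alveolar type 1 markers summed to 563 to 578 at 4 h, 305 to 347 at 18 h and 475 to 504 at 24 h, and the 12 endothelial markers to 279 to 337, 184 to 240 and 275 to 302. The 10 fibroblast and smooth muscle markers summed to 308 to 342, 214 to 263 and 289 to 293, and the 8 club and ciliated markers to 1666 to 1708, 965 to 1419 and 1347 to 1727. For these 4 lists the saline arrays of 18 h did not overlap those of 4 h. The same held for the 10 alveolar type 2 markers. They summed to 2317.7 to 2318.3 at 4 h, 1447 to 2066 at 18 h and 2121 to 2464 at 24 h. The 10 alveolar macrophage markers were not lower, with sums of 127 to 160 at 4 h and 149 to 152 at 18 h.

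The median changes of single markers from 4 to 18 h in saline mice were -0.49 for alveolar type 1, -0.05 for endothelial, -0.36 for fibroblast and smooth muscle and -0.27 for club and ciliated cells, against -0.06 for all features. Single markers of these lists passed in both directions. Alveolar type 1 Rtkn2 rose by 0.82 (adjusted p = 0.0347) and endothelial Calcrl by 1.11 (adjusted p = 0.02). Those that fell were Gprc5a (-1.27), Hopx (-0.73), Vwf (-0.72), Tagln (-1.05) and Npnt (-0.90). In oleic acid mice the alveolar type 1 sum was 419 to 582 at 4 h, 354 to 410 at 18 h and 357 to 414 at 24 h. The part of any of these cells in the changes of the dividing-cell genes was not tested.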

How the data were processed

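RNA (200 ng, Cy3) from whole lungs of 31 mice was hybridised to Agilent arrays, 1 dye, 1 mouse each. Per the submitters' processing notes, Agilent Feature Extraction 10.5.1.1 read the images. The processed signal is, per the file headers, an intensity that the software had corrected for background and spatial trend, with a surrogate for dim spots. The mean and local background intensities are as scanned, and spot flags are 0 or 1. The authors' deposited table holds log2 values whose sorted columns differ by at most 0.0179, and its background treatment is not given in the sources used here.

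From the scanner files the log2 processed signal minus the array's 75th percentile was taken, control spots and outlier spots were left out, and spots of a probe were averaged. Probes were named through RefSeq accessions or the file's symbol, and unnamed probes stayed as single features. In limma 3.58.1 (R 4.3.3, data.table version 1.17.8, statmod version 1.5.0) the means of 12 groups were fitted to 29 arrays with empirical Bayes moderation. Benjamini-Hochberg adjustment ran over 25075 features with a threshold of 0.05. There were 15 comparisons, and 4 more were added after the data were seen. The number of arrays limits the precision. Nothing in the labels describes cages, litters or days, so the spread is that between mice as sampled. Replicates of a group correlated at 0.959 to 0.994, and none looked like a repeat of another.

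The members and gene lists were chosen with earlier results of these data known. Named are the members that passed (every array), the 4 S phase and 4 mitotic members with the smallest p in each comparison of the early, late or changed oleic acid effect and of time, up to 4 genes with the smallest p in other lists, and the first 4 markers of a cell type. Other names were chosen after their values were seen. Promoters are RefSeq windows, build GRCm38.p6, from 250 bases before to 50 after the start. The fit was tested on simulated data. Alternatives were 13 settings and the omission of each array.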

Additional observations from a re-analysis of the deposited data

How the results depend on the processing

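In every setting tried 0 members passed between oleic acid and saline, at single times, early, late or in the change between them. The results that moved are those of time. In oleic acid mice the late minus early count of 3 became 0 with 31 arrays and with median centring, and 1 with quantile normalization, the deposited table, no filter on dim probes or the replicate block, and it ran from 0 to 3 when single arrays were left out. The oleic acid count from 4 to 18 h, 2, became 0 with 31 arrays and with median centring, and 1 without the 5 arrays over 70% above background, with normexp correction, the deposited table, no filter or the mean of the kept probes (0 to 2 with single arrays left out). The saline count from 4 to 18 h, 5, became 0 with 31 arrays and with median centring, 1 without the 5 arrays (Cdc6, with saline 18 h then a lone array and the spread taken from other groups), 2 with no filter and 3 with the mean of the kept probes. Leaving out single arrays gave 0 to 10, and 3 without saline 4 h replicate 1, or without any of 6 oleic acid arrays that enter through the common spread. In the oleic acid F test over times the count of 0 became 1 without the 5 arrays, with the filter on every array or with trend and robust moderation, and 2 with slide as a random block (0 to 1 with single arrays left out, as for the saline F test and for late minus early saline). Late minus early in oleic acid mice has no value with slide as a fixed effect. Cdc6 has no value with the filter on every array. Ccnb1 turned to 0.23 in saline mice with the mean of its kept probes. The other passing members kept their sign in every setting, Birc5 between -1.89 and -0.60 and Mcm6 between -1.05 and -0.33 in saline mice from 4 to 18 h. With single arrays left out, these changes ran from -1.93 to -0.93 for Birc5 and from -0.71 to -0.46 for Mcm6. Only the saline arrays of 4 and 18 h alter these estimates, and all other arrays enter through the common spread alone.

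Under median centring the medians of the S phase members were 0.4739 at 1.5 h, -0.0592 at 3 h, 0.3864 at 18 h, 0.2216 at 24 h, 0.2633 late and 0.2647 for late minus early oleic acid effects. They were -0.3394 late minus early in saline mice, -0.8902 from 4 to 18 h in saline mice, -0.213 for that interval in oleic acid mice and 0.2928 from 18 to 24 h. Those of the mitotic members were 0.5572, 0.0154, 0.1509, 0.1328, 0.1388 and 0.1384 for the same 6 oleic acid effects, -0.4894 late minus early and -1.1338 from 4 to 18 h in saline mice. With 31 arrays the S phase median was -0.7162 at 3 h, -0.0984 early and 0.166 for late minus early, and the mitotic median was -0.1625 at 1.5 h. Without the 5 arrays the S phase median was -0.1038 at 18 h. The mitotic median was then -0.4063 at 18 h, 0.3401 from 18 to 24 h in oleic acid mice, -0.0278 late minus early in saline mice and -0.3258 from 4 to 18 h. Quantile normalization gave mitotic medians of 0.0694 at 18 h, 0.0935 for late minus early effects and -0.8584 for saline from 4 to 18 h. The deposited table gave -0.2778 for the S phase members in saline from 4 to 18 h and 0.1495 for the mitotic members at 24 h, and normexp gave -0.0473 for them at 3 h. The cause of these shifts was not tested.

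With single arrays left out, S phase medians ran from 0.0211 to 0.3253 at 1.5 h, -0.2916 to 0.1013 at 4 h, -0.0741 to 0.1957 at 18 h and -0.6151 to -0.2281 in saline mice from 4 to 18 h. Mitotic medians ran from -0.2476 to 0.094 at 1 h, -0.5627 to -0.0295 at 4 h, -0.354 to 0.1485 at 18 h, -0.1745 to 0.0875 late and -0.1747 to 0.0958 for late minus early effects. They ran from 0.1323 to 0.3401 from 18 to 24 h in oleic acid mice and from -0.8411 to -0.2459 in saline mice from 4 to 18 h.

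With the replicate number as a block, 4 members passed in saline mice from 4 to 18 h and 1 in oleic acid mice late minus early, where Mcm6 had an adjusted p of 0.0508 and Ccnb2 of 0.052. Whether the numbers pair the mice is not settled by these values. Same-numbered pairs correlated from -0.48 to 0.38 in their deviations from group means, with a median of 0.27 and 8 of 12 over 0.1. Pairs with different numbers ran from -0.44 to 0.48, with a median of -0.18 and 9 of 23 over 0.1. Of 24 arrays, 15 correlated best with their own number. The block changed no other count by over 1.5 times.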
